A study of Homo sapiens with 6 samples.

Results

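The genes described here make, cut, bind or sense hyaluronan: HAS2, HAS3, CEMIP, HYAL1, HYAL2, HYAL3, CD44, LAYN and TNFAIP6. They are 9 of 19775 genes named on the array, and they were chosen by the roles of their products with the signals of CL1-5 and CL1-0 on these 6 arrays already known. Their differences between the lines are therefore given as a description, with no test. Of the 9 genes, 8 had a probe set that names only that gene, with 26 probe sets in all, and 5 passed the filter on low signals and were among the 14828 genes fitted. HYAL1 had no such probe set in the platform annotation used here and was not analysed here.

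The study compared CL1-5, a highly invasive human lung adenocarcinoma cell line, with CL1-0, a poorly invasive line, both descended from the parental line CL1. Each line contributed 3 biological repeats, grown in RPMI medium with fetal bovine serum and antibiotics, and no other agent is given in the labels. Total RNA was labelled with biotin and hybridised to Affymetrix arrays, 1 array per repeat. Each line is a single cell line, so a difference between them is a difference between these lines. The p-values below weigh that difference only against the spread between repeats of a line, moderated across genes. Each array measured RNA from a whole culture, so fewer cells with a transcript and less transcript per cell cannot be told apart.

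Hyaluronan is a long, unsulfated glycosaminoglycan that the HAS enzymes build at the plasma membrane from UDP-glucuronic acid and UDP-N-acetylglucosamine and push out of the cell. Hyaluronidases of the HYAL family and the hyaluronan-binding protein CEMIP, also called KIAA1199, take part in cutting it into shorter chains. CD44 is its main cell-surface receptor and exists in many splice forms, and in carcinoma cells CD44 and hyaluronan have been studied for their parts in adhesion and migration.

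Median signals of the 6 arrays lay between 30.2 and 30.9 units. In a principal component analysis the lines lay apart on component 1, with 93.0% of the variance, and on component 2, with 4.42%, the repeat 3 arrays of CL1-5 and CL1-0 lay away from the others. The ratio of the 3′ to the 5′ ACTB control probe set was also highest in repeat 3, at a log2 of 0.91 in CL1-5 and 1.17 in CL1-0, against 0.31 to 0.40 in the other CL1-5 repeats and 0.44 to 0.53 in the other CL1-0 repeats. Signals of 6 epithelial markers summed to 4532 to 5353 units in CL1-5 and to 251 to 274 units in CL1-0, through KRT18 and KRT8. The KRT18 and KRT8 probe sets were of the cross-hybridising kind (suffix x). The other epithelial markers did not follow. EPCAM was at 9.75 to 11.3 units in CL1-5 and 27.5 to 32.8 units in CL1-0. CDH1 was at 33.5 to 36.8 units in CL1-5 and 37.6 to 45.7 units in CL1-0. KRT7 overlapped between the lines, and KRT19 was under the 40th percentile on every array. The lung lineage markers NKX2-1, SFTPB, SFTPC and NAPSA summed to 181 to 205 units in CL1-5 and 204 to 221 units in CL1-0. Among markers of other cell types, 5 fibroblast markers summed to 101 to 111 units in CL1-5 and 113 to 130 units in CL1-0, and 3 leukocyte markers to 44.9 to 51.5 units in CL1-5 and 51.3 to 52.7 units in CL1-0. The 3 endothelial markers summed to 140 to 154 units in CL1-5 and 67.7 to 85.5 units in CL1-0. The endothelial difference came with PECAM1, at 111 to 120 units in CL1-5 and 43.0 to 55.0 units in CL1-0, and CDH5 and PTPRC stayed under the 40th percentile on every array. The part of these markers in the results was not tested.

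Among the 5 hyaluronan genes fitted, CEMIP, CD44 and HAS3 had higher signals in CL1-5, HYAL2 had a lower signal in CL1-5, and HYAL3 overlapped between the lines. Over all 14828 genes, 23.3% were called higher and 28.3% lower in CL1-5 at an adjusted p under 0.05 (limma, Benjamini-Hochberg), and since the members were chosen with this contrast known, nothing is read from their 3 and 1. The lines did not overlap for 4 of the 5, beside 58.8% of all genes fitted. HAS2, LAYN and TNFAIP6 had signals at or under the 40th percentile of their array on all 6 arrays. That percentile, 19.5 to 20.3 units, served as a stand-in for background because detection calls were not used here.

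**Figure D1:**
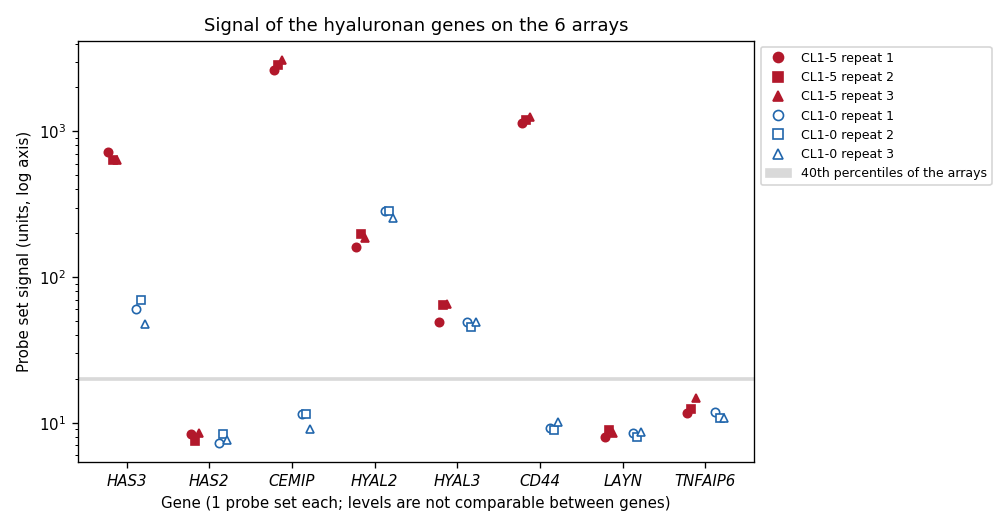
Signal (units, log axis) of the brightest eligible probe set of each gene with a probe set, 1 point per array, with CL1-5 filled and left of open CL1-0, and the 40th percentiles of the arrays in grey. HAS3, CEMIP and CD44 are higher on all 3 CL1-5 arrays, HYAL2 is lower, and HAS2, LAYN and TNFAIP6 lie under the grey line on all 6 arrays.

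The promoter windows of the 3 genes with higher signals in CL1-5, and of HYAL2 for contrast, are shown so that the start regions of the genes with the differing signals can be read side by side. Windows are 300 bases from RefSeq on GRCh38.p14, from 250 bases before the start site to 50 after it, each printed 5′ to 3′ on the gene's strand. Capitals mark TATAAA and the GC box GGGCGG, searched on both strands with the AP-1 motif TGANTCA and the NF-kappaB consensus. The HAS3 window belongs to 1 annotated start of that gene. Their positions are chr15:80779120-80779419 on the plus strand for CEMIP, chr11:35138921-35139220 on the plus strand for CD44, chr16:69107290-69107589 on the plus strand for HAS3 and chr3:50322696-50322995 on the minus strand for HYAL2.
CEMIP: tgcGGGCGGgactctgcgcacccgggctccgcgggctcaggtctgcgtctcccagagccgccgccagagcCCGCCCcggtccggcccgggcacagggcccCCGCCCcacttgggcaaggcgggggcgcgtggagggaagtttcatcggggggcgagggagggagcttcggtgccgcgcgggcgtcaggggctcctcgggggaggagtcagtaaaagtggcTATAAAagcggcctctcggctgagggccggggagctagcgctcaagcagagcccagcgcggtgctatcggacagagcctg
CD44: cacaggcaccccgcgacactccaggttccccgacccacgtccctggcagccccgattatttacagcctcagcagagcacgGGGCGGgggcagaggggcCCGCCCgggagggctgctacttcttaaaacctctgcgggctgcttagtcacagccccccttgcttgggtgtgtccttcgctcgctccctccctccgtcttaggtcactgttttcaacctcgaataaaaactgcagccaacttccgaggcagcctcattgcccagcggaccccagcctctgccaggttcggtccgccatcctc
HAS3: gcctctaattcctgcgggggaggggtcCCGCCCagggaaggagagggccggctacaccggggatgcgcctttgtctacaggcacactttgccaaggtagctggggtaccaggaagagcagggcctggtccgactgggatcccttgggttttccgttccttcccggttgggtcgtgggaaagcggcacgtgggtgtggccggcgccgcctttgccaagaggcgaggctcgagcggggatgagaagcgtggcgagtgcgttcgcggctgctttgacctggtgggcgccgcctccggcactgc
HYAL2: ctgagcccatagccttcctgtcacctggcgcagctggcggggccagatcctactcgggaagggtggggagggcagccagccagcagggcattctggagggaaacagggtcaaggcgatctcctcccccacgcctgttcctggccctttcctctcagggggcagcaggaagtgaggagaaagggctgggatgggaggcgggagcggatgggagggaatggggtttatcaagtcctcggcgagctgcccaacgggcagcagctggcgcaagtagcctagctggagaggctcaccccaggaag
In the CEMIP window TATAAA began 30 bases before the start, and 3 GC boxes began at -247, -180 and -150. The CD44 window held 2 GC boxes, at -170 and -152, and the HAS3 window held 1, at -223. None of the 4 motifs was found in the HYAL2 window. GC boxes were not limited to the genes with higher signals in CL1-5. Each HYAL3 window held 2, and 1 of these windows also held an NF-kappaB match, while HYAL3 overlapped between the lines. The window of HYAL1, which was not measured, held 2 GC boxes. The TNFAIP6 window held 1 AP-1 match and no GC box. Of 35116 windows in the same table, 11.5% held TATAAA, 45.0% a GC box, 7.71% the AP-1 motif and 11.3% the NF-kappaB consensus, and the median GC content was 58.7%, beside 73.0% for CEMIP, 63.3% for CD44, 67.0% for HAS3 and 65.0% for HYAL2. Of the hyaluronan genes, 7 had a window in the table. A match describes the letters of the window and is not evidence of binding.

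HAS3 encodes a synthase that makes hyaluronan chains at the plasma membrane. Its brighter probe set gave 726, 639 and 636 units on the CL1-5 arrays and 60.5, 69.9 and 47.6 units on the CL1-0 arrays. Every CL1-5 array was above every CL1-0 array, with means of 667 ± 50.7 units in CL1-5 and 59.3 ± 11.2 units in CL1-0 (SD, n = 3 each). The log2 fold change was 3.36 (SE 0.14), which is 10.3-fold on the log2(signal + 6.85) scale. Within repeats 1, 2 and 3 the log2 difference was 3.44, 3.07 and 3.56. The second HAS3 probe set did not show this. It gave 20.1, 21.8 and 26.6 units in CL1-5 and 19.2, 20.9 and 21.6 units in CL1-0, near the 40th percentile and overlapping, with a log2 fold change of 0.11 (SE 0.10). Taking the median of both gave 1.73, and which transcripts each probe set reads was not analysed here.

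HAS2, a synthase of long hyaluronan chains, was dim in both lines. One probe set gave 6.05, 8.12 and 7.47 units in CL1-5 and 6.28, 6.88 and 5.48 units in CL1-0. The other gave 8.32, 7.43 and 8.56 units in CL1-5 and 7.25, 8.33 and 7.65 units in CL1-0. Both overlapped between the lines, and at such signals no difference could be measured.

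CEMIP binds hyaluronan and is needed for its breakdown in skin fibroblasts. Its brighter probe set gave 2656, 2838 and 3099.7 units in CL1-5 and 11.5, 11.6 and 9.10 units in CL1-0, with means of 2865 ± 223 units in CL1-5 and 10.7 ± 1.40 units in CL1-0 (SD, n = 3 each). All CL1-0 values were under the 40th percentile of their array, so only a bound can be given. By this probe set CEMIP was at least 107-fold higher in CL1-5. The bound sets the mean of log2(signal + 6.85) in CL1-5 against that of the 40th percentiles of the CL1-0 arrays, and all bounds below were made so. The fitted log2 difference was 7.35 (SE 0.11), with 7.18, 7.27 and 7.61 within repeats 1, 2 and 3.

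The second CEMIP probe set gave 272, 166 and 115 units in CL1-5 and 33.5, 24.7 and 37.4 units in CL1-0. The lines did not overlap, with means of 184 ± 80.03 units in CL1-5 and 31.9 ± 6.48 units in CL1-0 (SD, n = 3 each) and a log2 fold change of 2.23 (SE 0.29). The 2 probe sets thus had the same direction and very different sizes. The second also differed among repeats, at 2.79 and 2.45 in repeats 1 and 2 against 1.47 in repeat 3, the repeat with the higher 3′ to 5′ ACTB ratio in both lines, whose part in this was not tested.

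HYAL2, a hyaluronidase anchored to the cell surface, gave 162, 196 and 184 units in CL1-5 and 285, 284.5 and 256 units in CL1-0. All 3 CL1-5 arrays were under all 3 CL1-0 arrays, with means of 181 ± 17.5 units in CL1-5 and 275 ± 16.8 units in CL1-0 (SD, n = 3 each). The log2 fold change was -0.59 (SE 0.11), and it was -0.79, -0.52 and -0.46 within repeats 1, 2 and 3. HYAL3, a relative of HYAL2 in the same gene cluster, gave 49.2, 64.6 and 64.9 units in CL1-5 and 49.2, 45.1 and 48.9 units in CL1-0. Its lines overlapped through repeat 1 of CL1-5, and the log2 fold change was 0.27 (SE 0.12).

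CD44 had 13 probe sets, of which 8 passed the filter. The brightest gave 1144.0, 1205 and 1252 units in CL1-5 and 9.22, 8.87 and 10.1 units in CL1-0, with means of 1200.3 ± 54.3 units in CL1-5 and 9.38 ± 0.61 units in CL1-0 (SD, n = 3 each). CD44 was thus at least 45.0-fold higher in CL1-5 by this probe set, with a fitted log2 difference of 6.22 (SE 0.09) and values of 6.16, 6.27 and 6.22 within repeats 1, 2 and 3. The 8 probe sets were above the 40th percentile on all CL1-5 arrays, and 5 of them were at or under it on all CL1-0 arrays. Those 5 gave bounds between 1.88-fold and 45.0-fold, and the other 3 had log2 fold changes of 3.42, 3.48 and 3.88.

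The sizes differed among CD44 probe sets. Another probe set gave 426, 539.96 and 493 units in CL1-5 and 14.8, 8.84 and 9.56 units in CL1-0, at least 18.3-fold higher in CL1-5. A further one, at or under the percentile on only part of the CL1-0 arrays, gave 319, 458 and 355 units in CL1-5 and 15.1, 26.5 and 16.8 units in CL1-0, a log2 fold change of 3.88 (SE 0.20). Both were higher on every CL1-5 array than on any CL1-0 array. The dimmest that passed gave 33.8, 52.3 and 46.0 units in CL1-5 and 10.4, 8.72 and 11.1 units in CL1-0, at least 1.88-fold higher in CL1-5.

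Among the 8, repeat 1 was the lowest CL1-5 array except in 3 probe sets, where repeat 3 was. One gave 299, 367 and 215 units in CL1-5 and 18.4, 24.5 and 16.5 units in CL1-0, a log2 fold change of 3.48 (SE 0.20). Another gave 294, 347 and 213 units in CL1-5 and 20.6, 22.9 and 16.7 units in CL1-0, a log2 fold change of 3.42 (SE 0.19). The last, of the cross-hybridising kind, gave 334, 374 and 319.6 units in CL1-5 and 5.74, 8.72 and 12.7 units in CL1-0, at least 13.0-fold higher in CL1-5. Of the 5 CD44 probe sets that did not pass, 4 were under the percentile on all 6 arrays, and the fifth exceeded it on 1 CL1-5 array. In all, 10 of the 13 did not overlap and were higher in CL1-5, and 3 overlapped. The 10 are the 8 that passed and others under the percentile on all 6 arrays, too dim for a difference to be measured. Over all members 14 of 26 probe sets did not overlap, beside 44.3% of the 41091 probe sets that name 1 gene. Which splice forms these probe sets read was not analysed here.

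**Figure D2:**
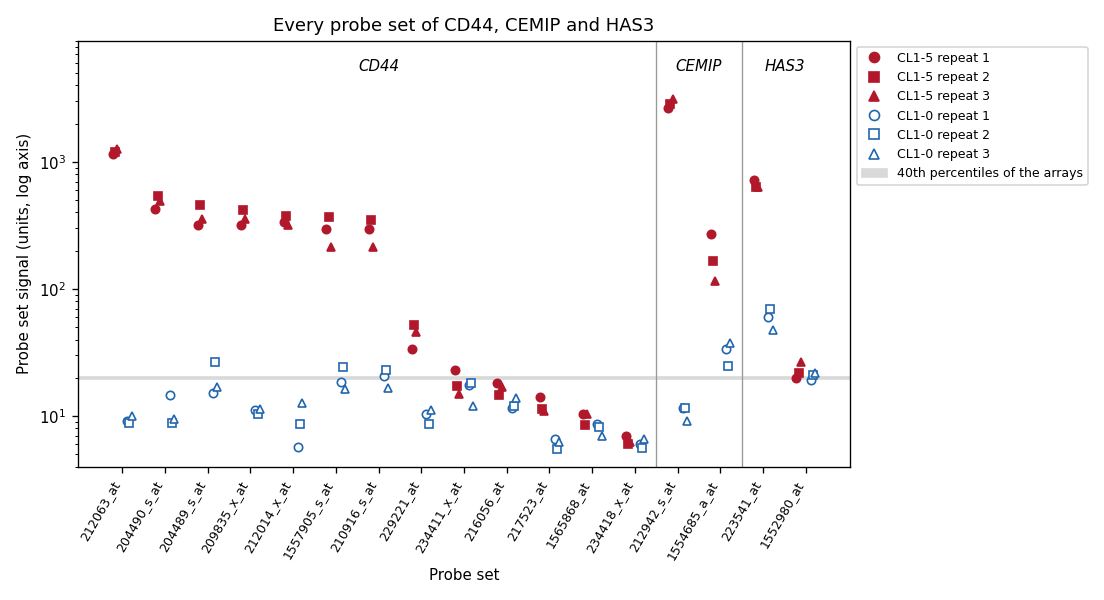
Signal (units, log axis) of each CD44, CEMIP and HAS3 probe set on the 6 arrays, with CL1-5 filled and left of open CL1-0, and the 40th percentiles of the arrays in grey. CD44 has 8 probe sets above grey on all CL1-5 arrays, both CEMIP probe sets are higher in CL1-5, and the second HAS3 probe set overlaps.

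LAYN encodes layilin, a membrane receptor of hyaluronan. Its 3 probe sets lay between 6.00 and 9.10 units in CL1-5 and between 6.20 and 8.65 units in CL1-0, and all 3 overlapped. TNFAIP6, also called TSG-6, is a secreted protein that transfers heavy chains of inter-alpha-inhibitor onto hyaluronan. Its 2 probe sets lay between 6.33 and 14.7 units in CL1-5 and between 5.22 and 11.8 units in CL1-0, and both overlapped. Neither gene was bright enough for a difference to be measured.

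**Figure D3:**
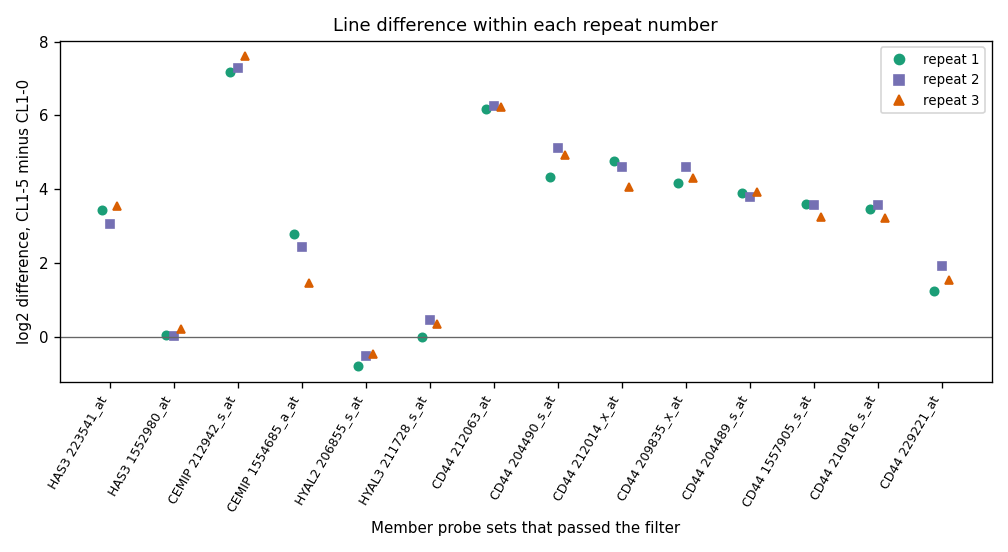
Log2 difference of CL1-5 minus CL1-0 within each repeat number, for the 14 probe sets that passed the filter. The brightest CEMIP and CD44 probe sets, whose CL1-0 signals are under the 40th percentile, lie around 7.35 and 6.22, and the second CEMIP probe set is lowest in repeat 3, at 1.47.

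The rest of the pathway was read from 50 other genes, of which 44 had a probe set and 31 were fitted. Of these 10 rose, 10 fell and 11 did not pass, with a median log2 fold change of 0.04, beside -0.03 over all genes. These are 32.3% in each direction, beside 23.3% higher and 28.3% lower over all genes fitted, and the lists were chosen with earlier results known. All adjusted p below are limma's with Benjamini-Hochberg adjustment over all 14828 genes.

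Of 5 genes that make the sugar precursors, 2 fell and 2 rose (28.3% and 23.3% over all genes fitted), with a median of 0.28. UGDH, which makes UDP-glucuronic acid, fell to 190, 204 and 219 units in CL1-5, against 407, 420.3 and 509 units in CL1-0, a log2 fold change of -1.09 (SE 0.11, adjusted p = 4.3e-05). GFPT1, which starts the hexosamine pathway, was at 553, 639 and 679 units in CL1-5 and 1324, 1383 and 1371 units in CL1-0, a log2 fold change of -1.12 (SE 0.09, adjusted p = 1.06e-05), and its 4 probe sets lay between -2.63 and -1.10. On the same route to UDP-N-acetylglucosamine, UAP1 rose by 0.51 (SE 0.08, adjusted p = 0.000549) and GNPNAT1 by 0.46 (SE 0.10, adjusted p = 0.00357). UGP2, which supplies UDP-glucose, had a log2 fold change of 0.28 and did not pass (adjusted p = 0.126). It passed with repeat number as a block (adjusted p = 0.000364) and without CL1-0 repeat 1 (adjusted p = 0.0388). UGP2 also passed with array weights (adjusted p = 0.00482) and with repeats 1 and 2 alone (adjusted p = 0.0451). HAS1 had no probe set that names it alone.

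Among the other breakdown genes 3 were fitted, of which 2 fell and none rose, with a median of -0.34. The shares over all genes fitted were 28.3% lower and 23.3% higher, and 3 genes are too few to read a direction. CEMIP2, a transmembrane relative of CEMIP, was at 41.2, 44.7 and 45.1 units in CL1-5 and 52.5, 55.6 and 63.5 units in CL1-0, a log2 fold change of -0.34 (SE 0.10, adjusted p = 0.0202). Its adjusted p was 0.0686 without CL1-5 repeat 1, 0.0561 without CL1-5 repeat 2 and 0.0645 without CL1-0 repeat 3. With repeats 1 and 2 alone it was 0.0676, and the call ended in 7 of 24 alternatives. The fold changes of CEMIP and CEMIP2 thus lay on opposite sides, that of CEMIP2 with a call that did not hold throughout. GUSB, a lysosomal beta-glucuronidase, had a log2 fold change of -0.39 (SE 0.10, adjusted p = 0.0122), but its probe sets disagreed, at -0.39 and 0.07, and with their median the adjusted p was 0.416. HEXA, a lysosomal hexosaminidase, did not pass (-0.19, adjusted p = 0.117). HEXA passed with the block (adjusted p = 0.0150), with array weights (0.00173) and with repeats 1 and 2 alone (0.0374). Its probe sets disagreed, at -0.19 and 0.13, with an adjusted p of 0.806 for their median. HYAL4 was dim on all 6 arrays, at 13.4, 14.4 and 16.3 units in CL1-5 and 13.7, 14.4 and 12.4 units in CL1-0.

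Among the other receptors 5 were fitted, of which 2 rose and 1 fell (23.3% and 28.3% over all genes fitted), with a median of 0.17. HMMR, the receptor for hyaluronan-mediated motility, which also has a role at the mitotic spindle, fell to 852, 926 and 881 units in CL1-5, against 1528, 1663 and 1811 units in CL1-0, a log2 fold change of -0.90 (SE 0.09, adjusted p = 2.62e-05). TLR4, an innate immune receptor reported to sense hyaluronan fragments, was at 31.8, 35.6 and 27.2 units in CL1-5 and 19.9, 20.7 and 20.0 units in CL1-0, a log2 fold change of 0.50 (SE 0.10, adjusted p = 0.00293). Its CL1-0 signals lay at the 40th percentile of their arrays, and 1 of its 4 probe sets passed the filter. LYVE1, the lymphatic hyaluronan receptor, was at 21.5, 22.99 and 20.6 units in CL1-5 and 14.7, 16.7 and 19.2 units in CL1-0, a log2 fold change of 0.27 (SE 0.10, adjusted p = 0.0425) and at least 1.06-fold higher. That call ended without CL1-0 repeat 1 (adjusted p = 0.117) or repeat 2 (0.0961), and, with the filter on 2 arrays, without CL1-5 repeat 1 (0.0892), 2 (0.145) or 3 (0.0626). LYVE1 was under the 40th percentile on all CL1-0 arrays, so it passed the filter only through CL1-5.

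Of 18 hyaluronan-binding matrix proteins and cross-linkers 10 were fitted, of which 1 rose, 2 fell and 7 did not pass, with a median of 0.04. Over all genes fitted, 23.3% rose and 28.3% fell. PTX3, a pentraxin that binds TNFAIP6 and cross-links hyaluronan in the cumulus matrix, was at 74.6, 89.0 and 102 units in CL1-5 and 5.20, 6.76 and 5.09 units in CL1-0. It was at least 3.54-fold higher in CL1-5, while its partner TNFAIP6 was dim. PTX3 was under the percentile of the filter on all CL1-0 arrays, so it passed the filter only through CL1-5. Its fitted log2 fold change was 2.92 (SE 0.12, adjusted p = 1.45e-07). That value was 3.74 with a constant of 1 unit and 2.075 with the constant at that percentile. The fitted size and its adjusted p thus rest in part on the constant and on signals not above background, and only the bound is read. NCAN fell by 0.50 at signals near background (SE 0.09, adjusted p = 0.00143). ITIH4 fell by 0.34 (SE 0.10, adjusted p = 0.0184), a call that ended when CL1-5 repeat 2 was left out (adjusted p = 0.0795), and likewise for CL1-0 repeats 1 (0.0554) and 2 (0.0557).

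Of 8 fitted CD44 partners and sheddases 5 rose and 3 fell, with a median of 0.64, where 23.3% of all genes fitted rose and 28.3% fell. MMP14, a membrane protease that cuts CD44, was at 1352, 1255 and 602 units in CL1-5 and 64.6, 84.4 and 72.4 units in CL1-0, a log2 fold change of 3.66 (SE 0.27, adjusted p = 6.1e-06). Its 4 probe sets lay between 2.74 and 4.53, and CL1-5 repeat 3 was the lowest of the 3 in each. Repeat 3 had the higher 3′ to 5′ ACTB ratio in both lines, whose part in this was not tested. MMP9, which docks on CD44, was at 202, 193 and 209.7 units in CL1-5 and 38.6, 40.4 and 31.2 units in CL1-0, a log2 fold change of 2.26 (SE 0.11, adjusted p = 3.99e-07). The sheddases ADAM17 (0.73, adjusted p = 0.00111) and ADAM10 (0.56, adjusted p = 0.000596) rose.

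SPP1, or osteopontin, a secreted CD44 ligand, fell to 112, 91.3 and 68.5 units in CL1-5, against 14314, 14253 and 15746 units in CL1-0, a log2 fold change of -7.27 (SE 0.15, adjusted p = 2.06e-09). Its second probe set was under the 40th percentile on all CL1-5 arrays, so it gave only a bound, at least 1.61-fold lower in CL1-5. The ERM proteins, which tie the CD44 tail to actin, split. RDX fell to 1416, 1397 and 1471 units in CL1-5, against 4898, 4701 and 5281 units in CL1-0, a log2 fold change of -1.79 (SE 0.07, adjusted p = 9.3e-08). MSN rose by 0.72 (SE 0.11, adjusted p = 0.000453) in 1 probe set, with 0.04 in the other. EZR had -0.21 (SE 0.07, adjusted p = 0.0431), with probe sets between -0.21 and 0.13, and its adjusted p was 0.138, 0.112 and 0.0541 without CL1-5 repeat 1, 2 and 3 and 0.132 and 0.0791 without CL1-0 repeat 1 and 2. Without CL1-0 repeat 3 and with the filter on 2 arrays it was 0.0501. The EZR call ended in 15 of 24 alternatives, among them no filter (0.0550), median scaling (0.0562), no trend in the prior variance (0.0646) and the median of its probe sets (0.647).

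**Figure D4:**
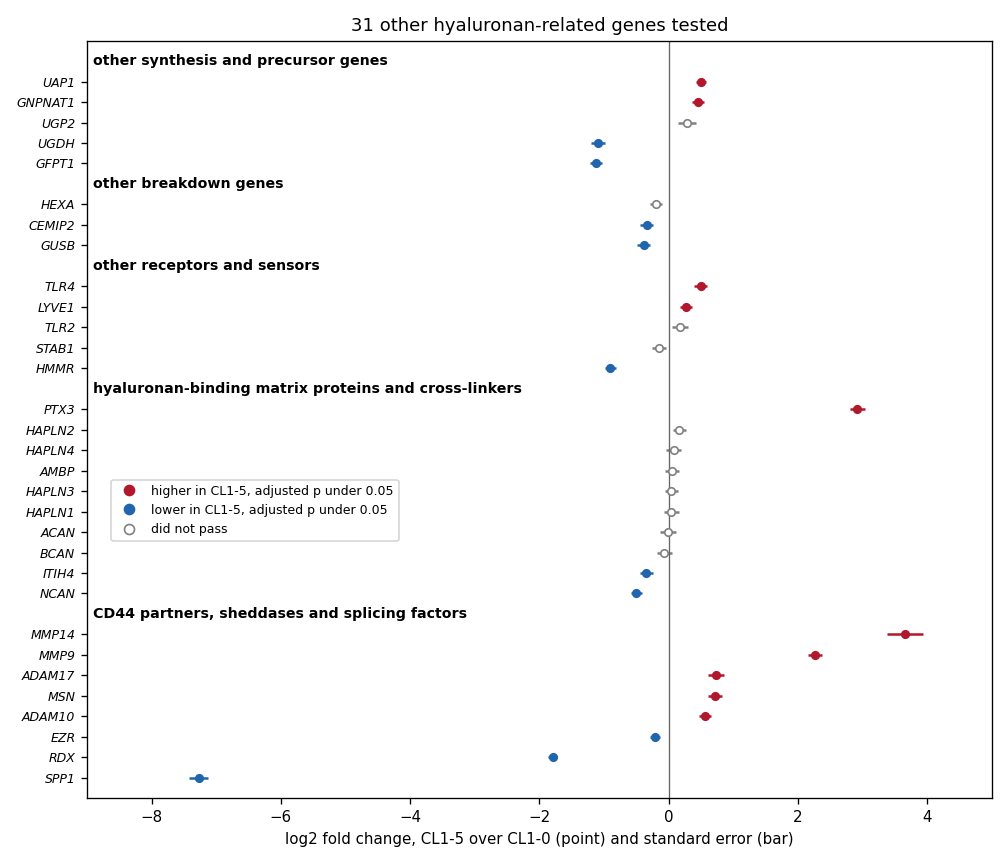
Log2 fold change of CL1-5 over CL1-0 (points) with its standard error (bars) for the 31 other hyaluronan-related genes fitted, grouped by role, red for higher and blue for lower at an adjusted p under 0.05. MMP14 (3.66), PTX3 (2.92) and MMP9 (2.26) lie far to the right and SPP1 (-7.27) far to the left. The PTX3 signals in CL1-0 are not above background, so its plotted size depends on the constant added before log2.

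The genes most like CEMIP were ranked by the root mean square difference of log2 values, centred per gene, over the 6 arrays. They were THBD (0.13), DNER (0.15), DTX3L (0.15), SNAI2 (0.16) and IFI27 (0.24). For CD44 they were CHRNA9 (0.11), IL1A (0.12), OAS2 (0.12), XAF1 (0.13) and CMPK2 (0.14). The fitted log2 differences were 6.99 to 7.36 for the genes like CEMIP and 5.99 to 6.45 for those like CD44. The ranks thus follow mainly the size of the difference between the lines. CEMIP and CD44 themselves, and 7 of these 10 genes, were at or under the 40th percentile on all CL1-0 arrays, so the ranks rest in part on signals not above background and on the constant added before log2.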

How the data were processed

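The deposited intensity values, 1 signal per probe set and array, were made by the authors with MAS5, per the submitters' processing notes, with version and settings not stated in the sources used. Of 54675 probe sets, 41091 named 1 gene, 1801 several and 11721 none, and 62 were controls. Before taking log2, 6.85 units were added to each signal, which is the 10th percentile over the 6 arrays. Probe sets above the 40th percentile of their array on at least 3 arrays were kept. The one with the highest mean log2 value stood for its gene, with the cross-hybridising kind (suffix x) used only where no other passed. Lines were compared with limma 3.58.1 in R 4.3.3 (lmFit, eBayes with a trend), with Benjamini-Hochberg adjustment over 14828 genes and a threshold of 0.05. The procedure was also run on simulated data with few genes changed and noise drawn independently for each array. That run does not cover repeats that deviate together. The number of arrays limits the precision.

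Same-numbered repeats of the lines deviated together (r = 0.48, 0.28 and 0.65), but the labels do not say what a number shares. All printed standard errors and adjusted p come from the fit on line alone unless the block is named, and the fit with repeat number as a block was an alternative. Alternatives changed the constant, filter, scaling, variance trend, weights, probe set choice, replicate block, threshold and arrays used. The members and gene lists were chosen with earlier results of these data known. Named were all members, up to 4 called genes per list with the largest absolute log2 fold change, HAS1, HMMR, CEMIP2, LYVE1 and HYAL4, the genes beside CD44, CEMIP and the HYAL genes, and the genes most like CD44 and CEMIP. UGP2, HEXA, MSN, EZR, ADAM10 and ADAM17 were added after their values were seen, to complete small counts. Promoter sequences are from RefSeq.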

Additional observations from a re-analysis of the deposited data

How the results depend on the processing

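Of the counts of genes called, over all genes and over the 31 other hyaluronan-related genes, 1 moved by more than 1.5 times: at a threshold of 0.01, 6 of the other hyaluronan-related genes were lower in CL1-5, against 10 at 0.05. With the replicate block, 4145 genes were called higher and 5149 lower, against 3448 and 4196 without it, and 11 of the 31 were higher and 11 lower. Besides UGP2 and HEXA, the block changed no call among those 31. No alternative reversed the direction of a member. Over 24 alternatives the fitted log2 fold change lay between 1.92 and 7.94 for CEMIP, 3.73 and 6.86 for CD44, 1.73 and 3.48 for HAS3, -0.66 and -0.52 for HYAL2 and 0.21 and 0.41 for HYAL3. The lowest CEMIP and CD44 values came from leaving out a CL1-5 array: with 2 CL1-5 arrays, a probe set bright in CL1-5 alone cannot pass a filter on 3 arrays, and another probe set stood for the gene, while PTX3 and LYVE1 then had no fitted value. The filter on 2 arrays when an array is left out, and repeats 1 and 2 alone, were added after seeing the data. Signals near the 40th percentile limit what can be measured for HAS2, LAYN, TNFAIP6, LYVE1, TLR4 and NCAN.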

Other observations

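The measured genes on either side of the hyaluronan genes in the RefSeq gene order did not all move with them, and their counts stand beside 23.3% of all genes fitted called higher and 28.3% called lower in CL1-5. Of 4 neighbours of CEMIP that were fitted, 3 rose in CL1-5: ABHD17C by 1.92 on the log2 scale (SE 0.15, limma adjusted p = 7.96e-06), ARNT2 by 1.22 (SE 0.21, adjusted p = 0.00104) and MESD by 0.73 (SE 0.07, adjusted p = 3.9e-05), while TLNRD1 did not pass (0.33, adjusted p = 0.224). Of 5 neighbours of CD44 that were fitted, FJX1 rose by 0.56 (SE 0.13, adjusted p = 0.00703), and APIP, PDHX, SLC1A2 and PAMR1 had log2 fold changes between -0.18 and 0.18 and did not pass. Beside the HYAL genes, IFRD2 and RASSF1 each fell by 0.39 (adjusted p = 0.00397 and 0.0102), and SEMA3B, LSMEM2, RASSF1-AS1 and ZMYND10 did not pass. RASSF1-AS1 is named as antisense to RASSF1, and the strand that each probe set reads was not analysed here.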
